A study of Canis lupus familiaris with 10 samples.

Results

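Neuronal and synaptic adhesion molecules are membrane proteins that hold axons, dendrites and glia together and that align the 2 sides of a synapse. The genes were taken by name from the array annotation: the L1 family, NCAM, DSCAM, ALCAM, AMIGO, netrin-G and IgLON proteins, the adhesion receptor ADGRB3, the cadherins and protocadherins, and all symbols that begin with CNTN, NRXN, NLGN, LRRTM, LRRN, CADM, SLITRK or TENM. The array held 76 genes with these names among 15115 with a symbol, and 149 of its 42924 probe sets measured them. The choice by name also took in cadherins that are not particular to neurons, such as CDH5, which is on the endothelial marker list used below. Of the 17 genes listed singly, 14 had a probe set under that symbol. No probe set carried the symbol OPCML, NTM or LSAMP in the annotation used here, and these genes were not analysed here.

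Neural retina from 1 eye each of 10 dogs was compared, 5 with glaucoma and 5 healthy, with 1 Affymetrix Canine Genome 2.0 array per dog. Glaucoma 1 and 2 were Shiba Inus of 5 and 14 years, glaucoma 3 and 4 were Basset Hounds of 5 and 7 years, and glaucoma 5 was a Dalmatian of 9 years. These are the ages of the sample labels, and the study's list of dogs gives lower ages for the older Shiba Inu and the Dalmatian. These dogs were clinic patients with spontaneous primary glaucoma and a closed or narrowed drainage angle, and they had received topical drugs that lower eye pressure before the eye was removed. The 5 healthy dogs were Beagles of 4 years with an open angle. Every glaucomatous dog therefore differed from every healthy dog in breed, age and treatment as well as in disease, and these cannot be told apart here.

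Most of these proteins work in pairs. Neurexins on the axon terminal bind neuroligins and leucine-rich repeat proteins on the dendrite, whereas cadherins, L1 family proteins and NCAM mostly bind their own kind on the facing cell, and catenins, ankyrins and spectrins tie them to the cytoskeleton inside. In the retina such proteins sort ganglion, amacrine and bipolar cell processes into the layers of the inner plexiform layer and bundle the ganglion cell axons that form the optic nerve, which is the tissue damaged in glaucoma.

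Values are log2 of the normalized intensity of a probe set, so that a difference of 1 is a 2-fold change. A probe set was tested if its log2 intensity was above 7 in at least 2 of the 10 retinas, and it was called lower or higher in glaucoma at an adjusted p under 0.05 (limma, Benjamini-Hochberg adjustment over all 18416 tested probe sets). Each gene was represented by its brightest tested probe set. Median array intensity was 77.1 to 80.7, and the correlation across probe sets between retinas was 0.849 to 0.967 within glaucoma and 0.953 to 0.982 within the healthy group. The retina of glaucoma 1 stood apart in cell type markers. Its 9 tested pigment epithelium markers had a median of 3.74 above the healthy mean on the log2 scale, against -0.60 to 0.97 in the other glaucomatous retinas, and its 7 tested rod markers a median of -3.56 against -0.78 to -0.02. Healthy 4 also had pigment epithelium markers above the healthy mean, by a median of 2.63.

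Of the 76 genes, 33 were tested, and 16 of them differed between the groups. In glaucoma 10 were lower and 6 higher, while 17 did not pass the test. The lower genes made up 30.3% of the tested adhesion genes, beside 8.65% of all 7900 tested genes, and the higher genes 18.2%, beside 8.04% of all genes. The gene list was drawn up with earlier results of these data known. These shares and those that follow therefore describe the list and do not test it. The median difference over the 33 genes was 0.05 (glaucoma minus healthy), beside -0.01 over all genes. Adhesion genes thus moved in both directions with a centre close to that of all genes. Differences of at least 2-fold among the called genes were found for 9 lower and 3 higher genes of the 33, beside 2.71% lower and 3.27% higher of all genes.

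Every glaucomatous retina lay below every healthy one for 9 genes, or 27.3% of the 33, beside 7.84% of all genes. All glaucomatous retinas lay above all healthy ones for 5 genes, or 15.2%, beside 7.29%. Counted by probe set, 12 of the 55 tested (21.8%) were lower, beside 9.4% of all tested probe sets, and 13 (23.6%) were higher, beside 7.58%. Part of these counts was set by the expression minimum, in both directions. Of the 55 tested probe sets, 8 were above the minimum in healthy retinas only and 9 in glaucomatous retinas only. Called probe sets were among both. AMIGO2, SLITRK6, CDH12, CDH18 and PCDH9, 5 of the 10 lower genes, were above the minimum in healthy retinas only, so that they could be tested only because they were high there. Among the 6 higher genes the same held in the other direction for CDH13. The genes below the minimum included NFASC, NCAM2, AMIGO1, ALCAM and DSCAM of the listed names, 14 of 21 cadherins, 6 of 8 protocadherins, and LRRTM1, LRRTM3 and LRRTM4. These 43 genes were not tested with the minimum in place. With no minimum all 76 genes could be tested, and 14 were lower (18.4%, beside 4.91% of all 15115 genes) and 6 higher (7.89%, beside 4.53%). The 10 lower and 6 higher genes above were all among them, and the 4 added were PCDH7, NCAM2, CDH10 and SLITRK4, named after their values were seen. All values of these 4 lay below the minimum in every retina. PCDH7, a protocadherin, had 5.75, 6.12, 5.33, 5.74 and 5.49 in glaucoma and 6.84, 6.79, 6.61, 6.83 and 6.78 in the healthy retinas (difference -1.08, SE 0.13, limma adjusted p = 0.000616), and the other differences were -0.85 for NCAM2, -0.56 for CDH10 and -0.36 for SLITRK4.

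**Figure D1:**
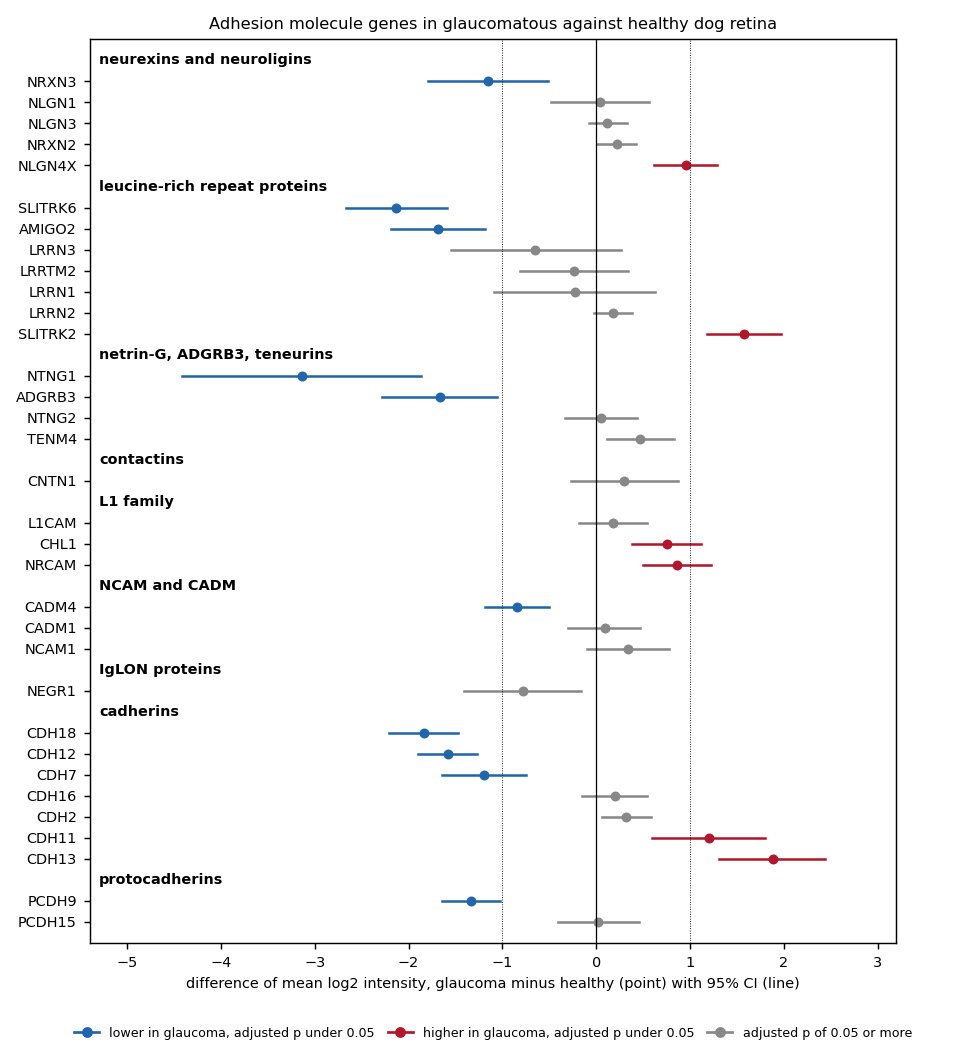
Difference of mean log2 intensity between 5 glaucomatous and 5 healthy retinas (x axis) for the 33 tested adhesion genes, grouped by family, with a point for the difference and a line for its 95% confidence interval. The 10 lower genes extend to -3.14 (NTNG1) and the 6 higher genes to 1.88 (CDH13), and most families hold genes on both sides of 0.

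Among neurexins and neuroligins, the pair of families that bridge the synaptic cleft, 5 of 6 genes were tested, with 1 lower, 1 higher and 3 that did not pass. NRXN3, a presynaptic neurexin, had log2 intensities of 6.22, 7.18, 6.52, 6.33 and 5.66 in glaucoma 1 to 5 and of 7.79, 7.62, 8.14, 6.90 and 7.19 in healthy 1 to 5. The groups overlapped, since glaucoma 2 lay within the healthy range. NRXN3 was called lower, with a difference of -1.15 (SE 0.29, limma adjusted p = 0.0211). This call was lost without healthy 2 (adjusted p = 0.0535) and with both Basset Hounds left out (adjusted p = 0.0521). The other NRXN3 probe sets lay below the minimum in every retina and were not tested. Their means in glaucoma and healthy retinas were 6.11 and 6.08, 5.22 and 5.74, 4.41 and 4.52, and 4.36 and 4.38.

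NLGN4X, a neuroligin of the postsynaptic membrane, went the other way. Its values were 8.92, 9.40, 9.26, 9.44 and 9.84 in glaucoma and 8.33, 8.52, 8.30, 8.51 and 8.40 in the healthy retinas, with no overlap. The difference was 0.96 (SE 0.15, limma adjusted p = 0.00192), a 1.94-fold higher intensity, and glaucoma 5 had the highest value. NRXN2, another neurexin, had the largest difference in these families among those that did not pass (0.22, SE 0.09, limma adjusted p = 0.133). The intervals of the other neuroligins tested lay between -0.48 and 0.56.

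The leucine-rich repeat proteins include LRRTM, SLITRK, LRRN and AMIGO proteins, of which SLITRK and LRRTM proteins induce presynaptic terminals from the dendritic side. Of 15 genes 7 were tested, and SLITRK6 and AMIGO2 were lower while SLITRK2 was higher. SLITRK6, which supports neurite growth and survival in sensory tissue, measured 5.33, 6.31, 6.66, 5.88 and 5.35 in glaucoma and 8.30, 8.06, 7.84, 7.91 and 8.08 in the healthy retinas. All 5 glaucomatous values were below the minimum of 7 and all healthy values above it, which gave a difference of -2.13 (SE 0.25, limma adjusted p = 0.000268). AMIGO2, a homophilic adhesion protein of neurons, showed the same arrangement, with 6.69, 6.69, 6.94, 6.05 and 5.64 against 7.95, 8.19, 7.98, 8.0 and 8.35. It was lower by 3.23-fold (log2 difference -1.69, SE 0.23, limma adjusted p = 0.000724), and glaucoma 4 and 5 had its lowest values.

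SLITRK2 measured 9.43, 9.02, 10.09, 9.26 and 9.49 in glaucoma and 7.70, 7.91, 7.79, 8.14 and 7.86 in the healthy retinas. Unlike SLITRK6 it was above the minimum in every retina, and each glaucomatous value exceeded each healthy one (difference 1.58, SE 0.18, limma adjusted p = 0.000261). LRRN3, a leucine-rich repeat protein of neurons, split the glaucomatous group. Glaucoma 1 and 5 measured 6.39 and 6.17, whereas glaucoma 2, 3 and 4 measured 7.85, 8.30 and 8.35, close to the healthy range of 7.90 to 8.18. Its difference of -0.65 did not pass (SE 0.41, limma adjusted p = 0.305) and passed with the Basset Hounds left out (-1.25, adjusted p = 0.0304). Over the alternatives run the LRRN3 difference ranged from -1.25 to -0.16.

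LRRN1, a related neuronal protein named after its values were seen, was high in 1 retina. Glaucoma 1 measured 9.07 and the other glaucomatous retinas 6.93, 7.32, 6.51 and 7.32, all of them below the healthy range of 7.41 to 7.88. The difference over all retinas was -0.23 (SE 0.39, limma adjusted p = 0.723), and without glaucoma 1 it was -0.64 and passed (adjusted p = 0.0369). Glaucoma 1 is the retina with the pigment epithelium markers described above, and their part in this value was not tested.

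The netrin-G proteins are held in the axon membrane by a lipid anchor and bind leucine-rich repeat ligands on dendrites. NTNG1 had the largest difference of the 33 tested adhesion genes. Its values were 7.74, 7.68, 8.49, 6.72 and 4.67 in glaucoma and 10.66, 10.21, 9.99, 9.92 and 10.22 in the healthy retinas. Glaucoma 5 was lowest by far, but even the highest glaucomatous retina, glaucoma 3, lay below every healthy one. The mean was 7.06 ± 1.48 in glaucoma and 10.20 ± 0.29 in the healthy group (SD, n = 5 each), 8.84-fold lower (log2 difference -3.14, SE 0.58, limma adjusted p = 0.0044). A dimmer probe set of NTNG1 had a difference of -0.80 (SE 0.25, limma adjusted p = 0.0502), with all glaucomatous values below the minimum.

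NTNG2, the close relative of NTNG1, did not pass the test. Its values ranged from 6.67 to 7.60 in glaucoma and from 6.74 to 7.19 in the healthy retinas, and the difference of 0.05 had an interval of -0.33 to 0.43. ADGRB3, an adhesion receptor that binds secreted C1q-like proteins at synapses, measured 7.75, 7.28, 7.69, 7.17 and 6.08 in glaucoma and 8.98, 8.97, 8.71, 9.05 and 8.62 in the healthy retinas. The groups did not overlap, and ADGRB3 was 3.18-fold lower (log2 difference -1.67, SE 0.28, limma adjusted p = 0.00247), again with glaucoma 5 lowest. TENM4, a teneurin that binds latrophilins across the synapse, had a difference of 0.47 that did not pass (SE 0.16, limma adjusted p = 0.0712).

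**Figure D2:**
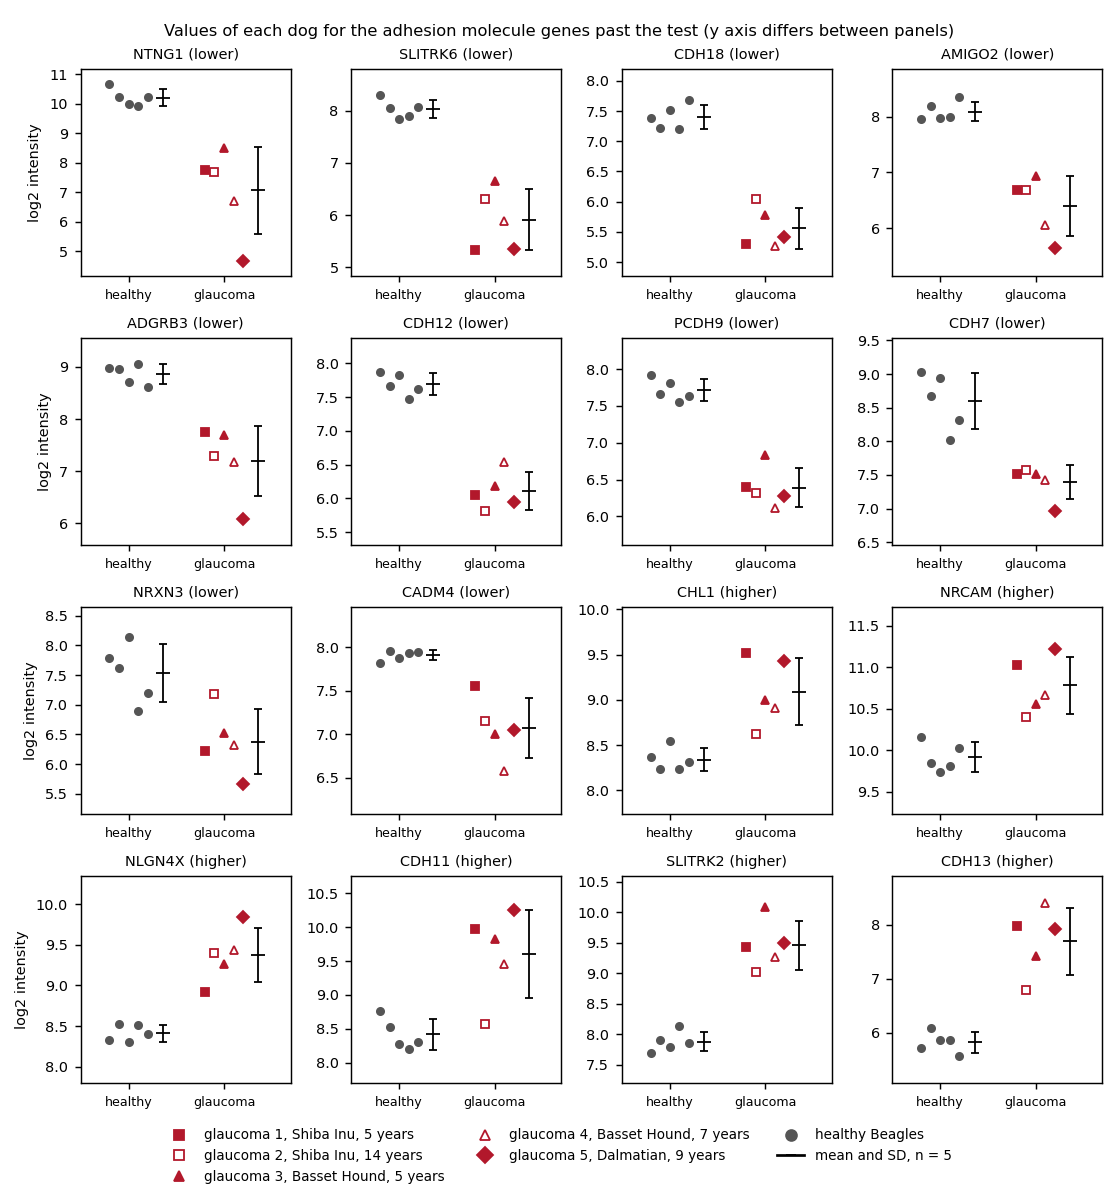
Log2 intensity (y axis, different in each panel) of each of 10 retinas for the 16 adhesion genes past the test, with symbols for each glaucomatous dog and bars for the group mean and SD (n = 5). Groups are separate in 14 panels, while in NRXN3 and CDH11 the older Shiba Inu, glaucoma 2, lies within the healthy range.

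The L1 family, which guides and bundles axons and is anchored by ankyrin, was higher or did not pass. NRCAM measured 11.02, 10.40, 10.56, 10.67 and 11.22 in glaucoma and 10.16, 9.84, 9.73, 9.81 and 10.03 in the healthy retinas. Every glaucomatous value was above every healthy one, with glaucoma 1 and 5 highest (difference 0.86, SE 0.16, limma adjusted p = 0.00528). All 4 tested NRCAM probe sets were called higher, by 0.86 to 1.05. The dimmest of the 4 was above the minimum in glaucomatous retinas only.

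CHL1, the close homolog of L1, was higher too. Its values were 9.52, 8.62, 9.00, 8.91 and 9.43 in glaucoma and 8.37, 8.24, 8.55, 8.24 and 8.31 in the healthy retinas. The groups did not overlap, and glaucoma 1 and 5 were again the highest, with glaucoma 2 nearest to the healthy retinas (difference 0.75, SE 0.17, limma adjusted p = 0.0119). Its second probe set was also higher (0.65, SE 0.20, limma adjusted p = 0.0463), but it was above the minimum in glaucomatous retinas only and its groups overlapped. L1CAM itself, the founding member carried by ganglion cell axons, was close to the minimum. It ranged from 6.44 to 7.30 in glaucoma and from 6.54 to 6.91 in the healthy retinas, and its difference of 0.18 did not pass (SE 0.16, limma adjusted p = 0.477).

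Of the contactins, lipid-anchored partners of the L1 family, only CNTN1 was bright enough to be tested. It measured 10.72 in glaucoma 1, 9.02 to 9.60 in the other glaucomatous retinas and 9.14 to 9.57 in the healthy ones. Its high value in glaucoma 1 was present in all 5 of its tested probe sets. The representing probe set had a difference of 0.30 (SE 0.26, limma adjusted p = 0.45), and the dimmest of the 5 was the only one called, at 0.96 (SE 0.23, limma adjusted p = 0.0165). That dimmest probe set was above the minimum in glaucomatous retinas only.

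Among the immunoglobulin proteins NCAM and CADM, CADM4 was lower. CADM proteins bind across synapses and between axons and glia. CADM4 measured 7.56, 7.15, 7.00, 6.58 and 7.05 in glaucoma and 7.82, 7.96, 7.88, 7.93 and 7.95 in the healthy retinas. The healthy retinas lay close together and above all glaucomatous ones (difference -0.84, SE 0.16, limma adjusted p = 0.00454).

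CADM1, a homophilic and heterophilic synaptic protein, did not pass the test. It measured 12.53 to 13.23 in glaucoma and 12.44 to 13.19 in the healthy retinas, and the difference of 0.09 had an interval of -0.30 to 0.47. A dim CADM1 probe set, above the minimum in healthy retinas only, was lower (-0.95, SE 0.21, limma adjusted p = 0.0107). Among the 14 genes with more than 1 tested probe set CADM1 was the only one in which a called probe set differed in sign from another. NCAM1, which binds itself and carries polysialic acid, measured 8.67, 9.37, 9.71, 9.10 and 8.89 in glaucoma and 8.44, 8.65, 8.93, 8.99 and 9.05 in the healthy retinas. These groups overlapped (difference 0.34, SE 0.20, limma adjusted p = 0.268), and 1 of its 3 probe sets was called higher at 0.48 (SE 0.12, limma adjusted p = 0.0199).

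NEGR1, an IgLON protein that shapes neurites, measured 6.76, 7.23, 7.95, 7.91 and 6.44 in glaucoma and 7.65, 8.26, 8.13, 8.05 and 8.11 in the healthy retinas. The Basset Hounds, glaucoma 3 and 4, lay within the healthy range, and the other glaucomatous retinas lay below it. The difference of -0.78 did not pass (SE 0.28, limma adjusted p = 0.0802). Without glaucoma 3 it was -0.96 and passed (adjusted p = 0.0326), and without glaucoma 4 it was -0.95 and passed as well (adjusted p = 0.0438).

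Cadherins bind in a calcium-dependent way, mostly to the same cadherin on the facing cell. Of 21 genes 7 were tested, with 3 lower and 2 higher. The 3 lower genes, CDH18, CDH12 and CDH7, are type II cadherins expressed by subsets of neurons. CDH18 measured 5.30, 6.04, 5.78, 5.27 and 5.42 in glaucoma and 7.38, 7.22, 7.51, 7.21 and 7.69 in the healthy retinas. Every glaucomatous value was below the minimum and every healthy value above it (difference -1.84, SE 0.17, limma adjusted p = 9.16e-05).

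CDH12 had 6.05, 5.81, 6.19, 6.54 and 5.95 in glaucoma and 7.87, 7.66, 7.83, 7.47 and 7.62 in the healthy retinas. This was the same arrangement as in CDH18 (difference -1.58, SE 0.14, limma adjusted p = 9.16e-05). CDH7 had 7.51, 7.58, 7.52, 7.43 and 6.96 in glaucoma and 9.03, 8.68, 8.94, 8.02 and 8.32 in the healthy retinas. Glaucoma 1 to 4 lay close together, with glaucoma 5 lower, and the healthy retinas were more spread (difference -1.20, SE 0.20, limma adjusted p = 0.00278).

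CDH13 and CDH11 were higher. CDH13, or T-cadherin, is held by a lipid anchor and is made by vessels as well as neurons, and it measured 7.98, 6.79, 7.41, 8.39 and 7.91 in glaucoma and 5.72, 6.08, 5.86, 5.86 and 5.57 in the healthy retinas. All healthy values were below the minimum, and the difference was 1.88 (SE 0.26, limma adjusted p = 0.000791), with a second probe set at 0.87 (SE 0.17, limma adjusted p = 0.00554). The second probe set was likewise above the minimum in glaucomatous retinas only. The endothelial and pericyte markers had 1 of 4 tested genes higher and 3 that did not pass, with summed log2 levels of 11.62 to 12.10 in glaucoma and 11.49 to 12.13 in the healthy retinas. This sum mostly reflects KDR, by far the brightest of the 4 (mean 11.65 in glaucoma and 11.62 in the healthy retinas). The marker called higher was PDGFRB (difference 0.59, SE 0.17, limma adjusted p = 0.0385). The part of vessels in the CDH13 difference was not tested.

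CDH11, a type II cadherin typical of mesenchymal cells, measured 9.97, 8.57, 9.82, 9.45 and 10.25 in glaucoma and 8.77, 8.53, 8.28, 8.20 and 8.30 in the healthy retinas. Glaucoma 2 lay within the healthy range and the other 4 glaucomatous retinas above it (difference 1.20, SE 0.27, limma adjusted p = 0.0132). A second CDH11 probe set did not pass (0.85, SE 0.31, limma adjusted p = 0.0885). CDH2, or N-cadherin, the main cadherin of neural tissue, was above the minimum in all retinas. Its difference of 0.32 did not pass (SE 0.12, limma adjusted p = 0.0834), but passed without healthy 1 (0.40, adjusted p = 0.0377).

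Protocadherins are large relatives of the cadherins that give neurons a surface identity. PCDH9 measured 6.40, 6.32, 6.83, 6.11 and 6.27 in glaucoma and 7.92, 7.67, 7.81, 7.56 and 7.63 in the healthy retinas, without overlap. It was lower by 2.52-fold (log2 difference -1.33, SE 0.14, limma adjusted p = 0.00017), and its second probe set fell by 1.18 on the log2 scale (SE 0.15, limma adjusted p = 0.00045). Both probe sets were above the minimum in healthy retinas only. PCDH15, which forms links at the bundles of sensory cells and at photoreceptors, had a difference of 0.02 with an interval of -0.41 to 0.46.

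**Figure D3:**
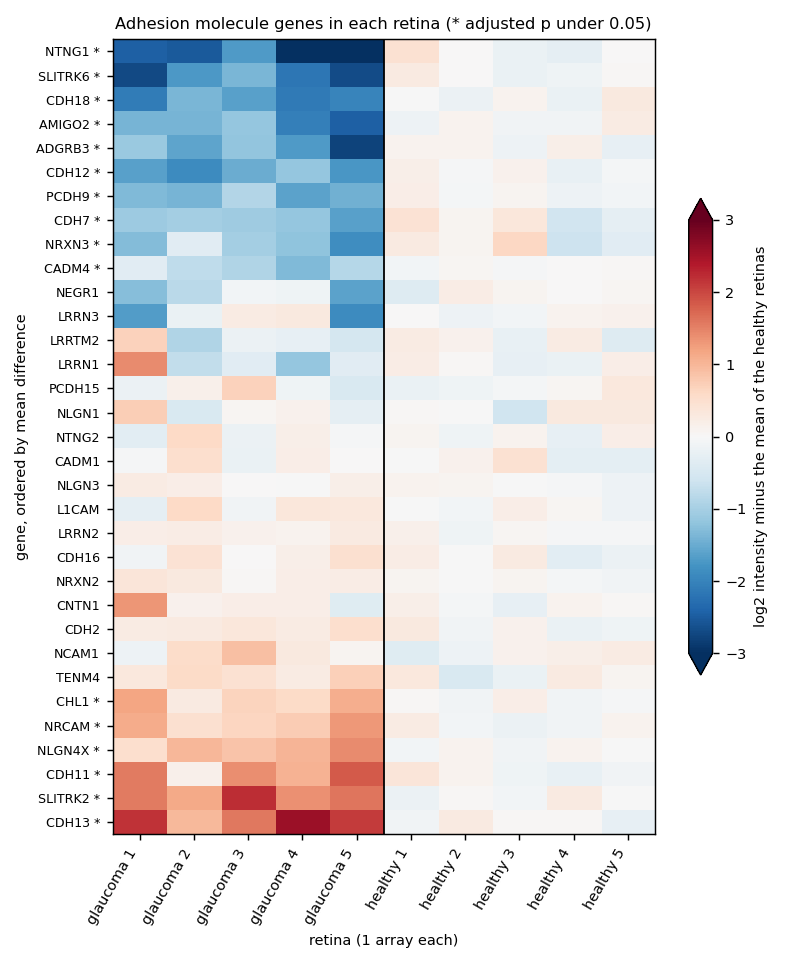
Log2 intensity of each of the 33 tested adhesion genes (rows, ordered by difference, asterisks for adjusted p under 0.05) in each of 10 retinas (columns) minus the mean of the healthy retinas, on a colour scale from -3 to 3. The top 10 rows are blue and the bottom 6 red in nearly all glaucomatous retinas, while LRRN1 and CNTN1 are redder in glaucoma 1 than in any other retina.

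The glaucomatous retinas were not alike. Over the 10 lower genes the median deviation from the healthy mean was -1.36, -1.40, -1.16, -1.65 and -1.93 in glaucoma 1 to 5, and over the 6 higher genes it was 1.36, 0.73, 1.13, 1.03 and 1.52. Glaucoma 5, the Dalmatian, had the lowest glaucomatous value in 5 of the 10 lower genes, and glaucoma 3, the younger Basset Hound, the highest in 4. These medians describe genes chosen by this comparison and are not a test. By this median glaucoma 2 was the nearest to the healthy retinas in the higher genes.

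Markers of retinal cell types were compared between the same groups. Over all tested genes 8.65% were called lower and 8.04% higher at an adjusted p under 0.05. No share over all genes at an unadjusted limma p is given here, so the unadjusted counts below have none to be set against. Of 9 tested ganglion cell markers 7 were lower and 1, SNCG, was higher, and their summed log2 level was 12.48 to 13.15 in glaucoma and 13.75 to 14.57 in the healthy retinas. The probe sets of SNCG disagreed: the one with the higher mean, which represents the gene here, had a difference of 2.52, and the other one had -2.57 (limma adjusted p = 0.000232). Without SNCG the summed level of the other 8 was 10.45 to 12.27 in glaucoma and 13.69 to 14.51 in the healthy retinas. All 4 tested amacrine markers were lower (summed level 7.86 to 10.47 against 11.48 to 11.98), as were both horizontal cell markers tested (6.88 to 9.94 against 10.98 to 11.55) and 3 of 4 bipolar markers (11.48 to 12.68 against 13.11 to 13.63). Cone markers were lower in 3 of 8, and in 8 of 8 at an unadjusted p under 0.05 (11.85 to 14.56 against 14.68 to 14.98). Of 7 rod markers 0 were called by limma, and 0 at an unadjusted p under 0.05 (11.77 to 15.43 against 15.06 to 15.61). Some of the markers called lower were above the minimum in healthy retinas only, and could be tested only for that reason. These were 2 ganglion cell markers and 1 each of the amacrine, horizontal and bipolar markers. ISL1 was counted in both the ganglion cell and the bipolar list. In a whole-tissue sample, fewer cells of a type and less RNA per cell cannot be told apart.

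Markers of glia and immune cells were among those called higher. Microglia markers were higher in 7 of 8 (12.79 to 14.03 against 10.61 to 11.25) and astrocyte and reactive glia markers in 3 of 4 (10.74 to 11.70 against 9.23 to 9.59). Müller glia markers were higher in 1 of 6 (15.25 to 15.74 against 15.26 to 15.53), pigment epithelium markers in 1 of 9, or 3 of 9 at an unadjusted p under 0.05 (12.95 to 15.73 against 11.83 to 15.09), oligodendrocyte and Schwann cell markers in 1 of 3 (9.11 to 10.67 against 8.14 to 8.58), and both T and B cell markers tested were higher (7.93 to 8.45 against 7.33 to 7.68). Of 3 lens, cornea and ciliary body markers 0 were called by limma, and 0 at an unadjusted p under 0.05 (9.69 to 10.60 against 9.51 to 10.08). Some of these markers could be tested only because they were above the minimum in glaucoma, namely both T and B cell markers and the single markers called for Müller glia, oligodendrocytes and Schwann cells, and endothelium and pericytes, and likewise 1 astrocyte and 1 microglia marker. The part of these cell types in the differences of the adhesion genes was not tested.

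RNA quality was read from array controls at the 3' and 5' ends of actin and GAPDH. The 3' end exceeded the 5' end by 0.94 ± 0.14 on the log2 scale in glaucoma and by 1.19 ± 0.22 in the healthy retinas (SD over 5 dogs per group, exact two-sided permutation p = 0.0556). With this 3' to 5' ratio in the model, 5 of the 16 adhesion gene calls were lost, those of NTNG1 (-2.42, adjusted p = 0.0698), NRXN3 (-0.90, adjusted p = 0.199), NRCAM (0.79, adjusted p = 0.0652), CHL1 (0.62, adjusted p = 0.132) and CDH11 (1.25, adjusted p = 0.0827). With the ratio taken over 4 control pairs (1.73 ± 0.22 against 1.74 ± 0.30, exact permutation p = 0.968), none of the 16 calls was lost.

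**Figure D4:**
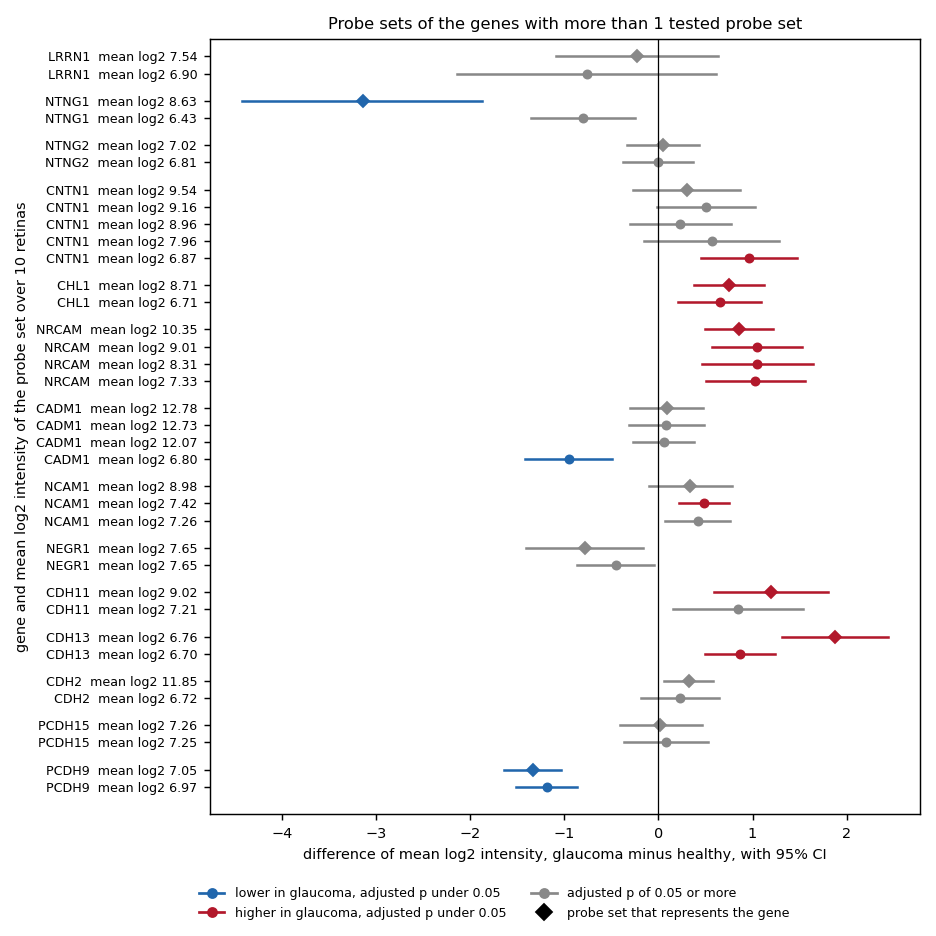
Difference of mean log2 intensity (x axis, with 95% confidence interval) of every tested probe set of the 14 adhesion genes with more than 1, labelled with its mean log2 intensity over 10 retinas, with diamonds for the probe set that represents the gene. The 4 NRCAM, 2 CHL1, 2 CDH13 and 2 PCDH9 probe sets were all called in 1 direction per gene, and the called probe set of CADM1 lies on the other side of 0 from the rest of that gene. Some of the called probe sets were above the minimum in 1 group only.

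The secreted and cell-surface proteins that bind the adhesion molecules, and the proteins that anchor them inside the cell, were listed by function and compared in the same way. Counts in these lists stand beside 8.65% lower and 8.04% higher over all 7900 tested genes, and were not tested against these shares. Of 12 secreted ligands of neurexins 5 were tested, with 3 lower and 2 that did not pass and a median difference of -0.88. All 3 lower ligands were above the minimum in healthy retinas only, so that the count and the median were set in part by the minimum. Neurexophilin 1, NXPH1, which binds alpha-neurexins, measured 5.49, 6.67, 6.97, 6.14 and 5.56 in glaucoma and 8.84, 8.98, 8.53, 9.05 and 8.91 in the healthy retinas. All glaucomatous values were below the minimum and well apart from the healthy ones (difference -2.69, SE 0.27, limma adjusted p = 0.000146).

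NXPH2, its relative, had 5.55 to 5.92 in glaucoma and 6.80 to 7.52 in the healthy retinas, a difference of -1.42 (SE 0.14, limma adjusted p = 0.000107). C1QL2, a C1q-like protein that links neurexins to postsynaptic receptors, was also lower (-0.88, SE 0.17, limma adjusted p = 0.00616). C1QL3, a ligand of ADGRB3, had the largest difference that did not pass (-0.53, SE 0.58, limma adjusted p = 0.558). It measured 5.35 in glaucoma 1 and 7.73 to 8.89 in the other glaucomatous retinas, against 7.70 to 8.78 in the healthy ones.

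Of 21 other surface proteins that bind the members 11 were tested, with 3 lower and 1 higher (median -0.24). The lower and the higher ones included a pair of relatives, MDGA2 and MDGA1, which bind neuroligins and block their access to neurexins. MDGA2 measured 8.08, 7.29, 7.60, 6.82 and 7.11 in glaucoma and 8.50, 8.32, 8.41, 8.86 and 8.63 in the healthy retinas (difference -1.17, SE 0.21, limma adjusted p = 0.00441). MDGA1 measured 9.35, 8.38, 8.26, 8.14 and 9.22 in glaucoma and 7.61, 7.05, 7.17, 7.26 and 6.76 in the healthy retinas (difference 1.50, SE 0.26, limma adjusted p = 0.00308). Neither overlapped between the groups, and they lay in opposite directions. The other lower ones were the latrophilin ADGRL3, a teneurin receptor (-0.80, SE 0.22, limma adjusted p = 0.0311), and the calsyntenin CLSTN3 (-0.79, SE 0.19, limma adjusted p = 0.0166), which was above the minimum in healthy retinas only. PTPRF, a receptor phosphatase that binds SLITRK proteins and netrin-G ligands, had 0.71 and did not pass (SE 0.38, limma adjusted p = 0.23).

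Catenins link cadherins to actin, and 7 of 8 were tested, with 1 lower and 2 higher (median 0.05). CTNNA2, the alpha-catenin of neurons, measured 8.27, 7.29, 7.89, 6.81 and 6.27 in glaucoma and 9.17, 8.80, 8.23, 8.83 and 8.95 in the healthy retinas. Glaucoma 1 just reached the healthy range, and the other glaucomatous retinas lay below it (difference -1.49, SE 0.34, limma adjusted p = 0.0139). CTNNA1, the alpha-catenin of epithelia and most other cells, was higher (0.58, SE 0.16, limma adjusted p = 0.0321), and so was CTNND1, or p120 catenin, which holds cadherins at the membrane (1.05, SE 0.17, limma adjusted p = 0.00244), although it was above the minimum in glaucomatous retinas only.

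Of 20 scaffold proteins with PDZ domains or bound to them at synapses, 9 were tested, and DLGAP4 was higher (0.43, SE 0.13, limma adjusted p = 0.0459) while 8 did not pass. This 1 of 9 is close to the 8.04% of all tested genes called higher. LIN7C, which works with CASK behind neurexins, had the largest difference that did not pass (-0.74, SE 0.29, limma adjusted p = 0.105). The median of the 9 was -0.24.

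Ankyrin and spectrin anchors, the cytoskeleton beneath L1 family and CADM proteins, were tested in 10 of 11 genes, with 3 lower and 7 that did not pass (median -0.18). EPB41L1, the protein 4.1 of neurons, measured 8.95, 8.88, 9.53, 7.65 and 8.12 in glaucoma and 11.28, 10.78, 11.06, 10.71 and 10.86 in the healthy retinas. Its groups were more than 1 log2 unit apart (difference -2.31, SE 0.31, limma adjusted p = 0.000614). EPB41L3, a related protein that binds CADM proteins, had -0.92 (SE 0.23, limma adjusted p = 0.0197), and SPTBN4, the beta-spectrin of the axon initial segment, had -0.67 (SE 0.11, limma adjusted p = 0.00248).

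ANK3, the ankyrin that binds NRCAM at the initial segment, measured 8.97, 10.86, 10.94, 10.75 and 9.70 in glaucoma and 11.28, 11.27, 11.23, 11.07 and 11.42 in the healthy retinas. Each glaucomatous value was below each healthy one, but glaucoma 1 and 5 lay far below the others of their group, and the difference of -1.01 did not pass (SE 0.34, limma adjusted p = 0.0693).

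**Figure D5:**
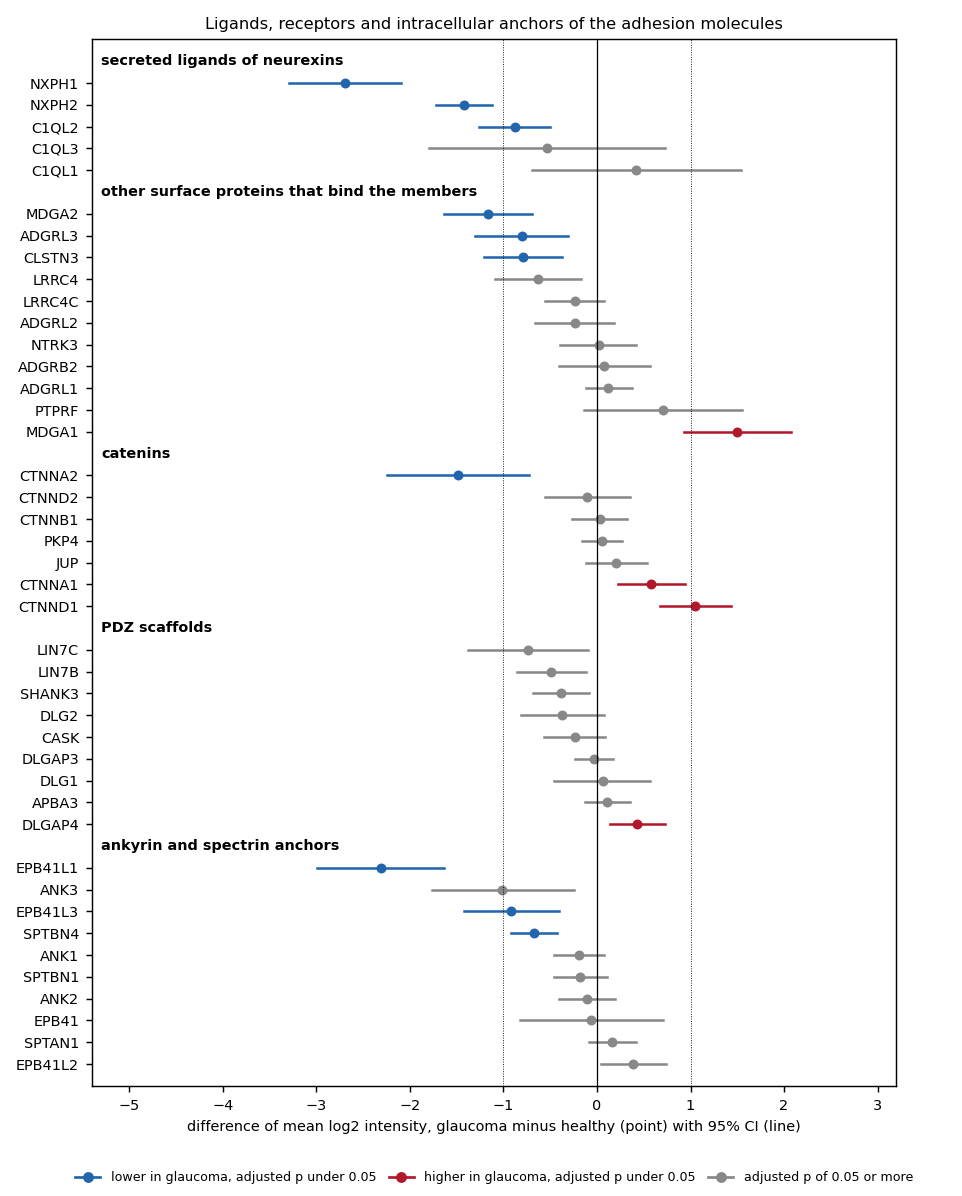
Difference of mean log2 intensity between 5 glaucomatous and 5 healthy retinas (x axis, with 95% confidence interval) for the tested ligands, surface partners and intracellular anchors of the adhesion molecules, by class. NXPH1 (-2.69) and EPB41L1 (-2.31) lie farthest to the left and MDGA1 (1.50) farthest to the right.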

How the data were processed

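Per the labels and the methods, retina was stored in RNAlater and 1 canine array was hybridized per dog. The authors normalized the arrays with RMA and deposited intensity values on a linear scale, and the genome build behind the probe sets is not given in the sources used here. The log2 of the deposited intensities was taken. After 111 control probe sets were left out, 18416 of 42924 passed the minimum, and limma (version 3.58.1, R version 4.3.3) was fitted to them with no covariate. The platform annotation gives 1 symbol to 29254 probe sets, several to 439 and none to 13231. Probe sets with several symbols or none represented no gene. Those past the minimum stayed in the fit, the adjustment and the shares over all probe sets. Arrays have no read depth, and their number limits the precision. RMA compresses low values, and gene symbols can be old (143 of the 149 probe sets matched a current gene ID, and 0 symbols changed).

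Genes were named by a rule: all listed genes tested, and in each family those past the test at least 2-fold, the next by adjusted p, the largest that did not pass, and genes whose probe sets disagree in sign. The members, lists, rule and alternatives were chosen with earlier results of these data known. SAM, used by the authors, was not run. The fit was tested on simulated data.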

Additional observations from a re-analysis of the deposited data

Results flagged for a closer look

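In the 110 groups of 5 values formed by the 55 tested probe sets, 7 held a retina whose gap to the nearest other value exceeded Dixon's 95% limit of 0.71 of the group's range. Chance gives about 5% of such groups. Glaucoma 1 was the highest of its group in a dimmer LRRN1 probe set (9.18, next 6.12) and in a pair of CNTN1 probe sets (10.43, next 9.24, and 8.28, next 7.25). Glaucoma 2 was lowest in the second NRCAM probe set (8.65, next 9.57), and glaucoma 5 was lowest in CDH7 (6.96, next 7.43). Among the healthy retinas, healthy 4 was lowest in the second NTNG2 probe set (6.52, next 6.83) and healthy 2 in the dimmer CDH2 probe set (6.16, next 6.67). The cause was not tested.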

How the results depend on the processing

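Of the 10 lower and 6 higher genes, none changed direction under any alternative run. With each retina left out in turn the counts were 9 to 11 lower and 6 to 7 higher genes, and 12 to 15 lower and 10 to 14 higher probe sets. With age as a covariate, quantile normalization or centring on the median, trend and robust options, no filter, or the Shiba Inus left out, all 33 gene calls stayed as they were. The healthy dogs were all of 4 years, so the age term rests on the glaucomatous dogs alone. The fit with age therefore cannot tell age from disease. A minimum of 2-fold left 3 higher genes and 6 higher probe sets. Without the filter, with all 149 probe sets tested, 14 genes and 19 probe sets were lower. With the minimum required in 5 retinas, which left 42 probe sets, 8 were higher. Of the 29 genes left by that setting 10 were lower and 5 higher, and CDH13 was no longer tested. The 3' to 5' ratio as a covariate left 3 higher genes and 3 higher probe sets. The ratio of 4 control pairs, an alternative chosen after seeing the data, changed none of the 33 gene calls. The exact Wilcoxon rank sum test, whose smallest p here is 0.00794, called 0 lower and 0 higher genes and 0 probe sets (smallest adjusted p = 0.0534), although at an unadjusted p under 0.05 there were 11 lower and 9 higher genes and 14 lower and 17 higher probe sets (over all genes 13.7% and 12.5%, over all probe sets 14.5% and 11.8%). The t-test that a legend of the study names, after Benjamini-Hochberg adjustment, lost NRXN3 (adjusted p = 0.055). Array weights added CDH2 (adjusted p = 0.0279) and TENM4 (0.58, adjusted p = 0.0398).

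The replicate numbers did not pair the dogs: same-numbered retinas had correlations of -0.24 to 0.07 in their deviations from the group means, and 0 of 5 correlated best with their own number. The replicate block gave 10 lower and 6 higher genes, and 13 lower and 11 higher probe sets. The ligands, surface partners and anchors were not recomputed under the alternatives.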
